A study of Arabidopsis thaliana with 6 samples.

Results

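The genes described here are inorganic phosphate (Pi) transporter genes and a trafficking factor gene, measured in *Arabidopsis thaliana* shoot apices. The set holds 10 of the 33554 genes in the deposited tables. These 10 are 7 *PHT1* genes (*PHT1;1* to *PHT1;5*, *PHT1;8* and *PHT1;9*), *PHO1*, its homologue *PHO1;H1*, and the trafficking factor gene *PHF1*. The set was selected with the contrast of both genotypes already known, so the fold changes of these 10 genes are given as a description, with no p-value. Their loci are AT5G43350 (*PHT1;1*), AT5G43370 (*PHT1;2*), AT5G43360 (*PHT1;3*), AT2G38940 (*PHT1;4*), AT2G32830 (*PHT1;5*), AT1G20860 (*PHT1;8*), AT1G76430 (*PHT1;9*), AT3G23430 (*PHO1*), AT1G68740 (*PHO1;H1*) and AT3G52190 (*PHF1*).

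Proteins of the PHT1 family carry Pi into cells together with protons, and are best known from the root, where several of them take up Pi from the soil. PHF1 is a SEC12-related protein of the endoplasmic reticulum that lets PHT1 proteins leave for the plasma membrane. PHO1 exports Pi out of cells and is known for loading Pi into the root xylem, a role that PHO1;H1 shares in part. When plants lack Pi, the transcription factor PHR1 binds an element named P1BS in many Pi-responsive genes. PHO2, an E2 ubiquitin-conjugating enzyme, lowers the amounts of PHO1 and PHT1 proteins when Pi is sufficient, and a microRNA represses it when Pi is lacking.

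RNA-seq was done on dissected shoot apices without flowers older than stage 4, from Col-0 wild type (WT) and from *vip3-1*, a T-DNA insertion line in VIP3, which is a subunit of the Paf1 complex (Paf1c) that accompanies RNA polymerase II. Both genotypes are in the Col-0 background, and both were grown in short days at 21°C and then under continuous light at 16°C. Each genotype had 3 libraries, and each library combined RNA of 2 tubes of 30 to 35 apices. The paper calls them technical triplicates, so p-values and SDs measure the spread between these libraries and may leave out the spread between separately grown plants. The libraries held 50040048 to 69033271 counts in WT and 51944081 to 53519922 in *vip3-1*. *VIP3* itself was at 40.9 ± 0.827 CPM (counts scaled to a common library size, mean ± SD, n = 3) in WT and 6.89 ± 0.808 in *vip3-1*. WT replicate 3 stood apart from the other libraries, since the summed CPM of 11 anther and tapetum markers was 1176 there, against 75.6 and 80.0 in WT replicates 1 and 2 and 41.1 to 108.7 in *vip3-1*.

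P1BS (letters GNATATNC, which read alike on both strands) was looked up in the TAIR10.1 genome, because it is the element through which PHR1 reaches Pi transport genes. Within 1000 bases before the start codon it occurred in 9 of the 10 genes, all but *PHO1*, against 18.679% of 27443 protein-coding genes. Counted before the annotated gene start, it occurred in 5 of the 10 in 1000 bases (20.253% of all genes). In 300 bases it occurred in 1 of the 10 (6.504%). Neither of these windows held a P1BS in *PHT1;4*, *PHO1*, *PHO1;H1* or *PHF1*. These are the genes whose level was higher in every *vip3-1* library than in any WT library. The window before the start codon was chosen after the shorter window had been seen, and it includes the leader, the exons and introns between the gene start and the start codon. Windows of 30 bases are shown for the 3 genes with a P1BS before the start codon and a higher level in *vip3-1*. They are also shown for the 3 *PHT1* genes with a P1BS that had no count. Each is read 5′ to 3′ on the strand of the gene, and capitals mark the P1BS.
*PHT1;4*: ttcagttccttGAATATGCATATACtgtat
*PHO1;H1*: ggaagcacggtGGATATACactggcgagaa
*PHF1*: tggatcttaagGAATATCCtttcccaccac
*PHT1;1*: atttaatttgtGTATATACcatttcaagtt
*PHT1;2*: aatataaatatGGATATACccttaagattc
*PHT1;3*: aaataaaatgtGGATATACccttaagattc

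The window of *PHT1;4* (chr2:16258094-16258123, plus strand) holds 2 overlapping P1BS in the intron of the leader, 395 and 389 bases before the start codon. In *PHO1;H1* (chr1:25816887-25816916, minus strand) and *PHF1* (chr3:19357163-19357192, minus strand) the element lies in a leader exon, 331 and 271 bases before the start codon. In *PHT1;1* (chr5:17401825-17401854, minus strand) it lies in a leader intron, and in *PHT1;2* (chr5:17415645-17415674, plus strand) and *PHT1;3* (chr5:17409120-17409149, plus strand) it lies upstream of the annotated gene start. *PHT1;2* and *PHT1;8* each have a further P1BS, 945 and 595 bases before the start codon. Outside the 10 genes, P1BS was found within 1000 bases before the start codon of *PHT1;6* and not of *PHT1;7*, and of 1 of 9 other PHO1-type loci (*SHB1*). Counted in 1000 bases before the gene start, *PHT1;7* had 2, at 124 and 322 bases. *PHT1;6*, *SHB1* and the PHO1-type locus AT1G14040 had 1 each in that window. The W-box core TTGAC (either strand), to which WRKY factors bind, was found in 1000 bases before the gene start in all 10 genes and in 88.124% of all genes. These matches describe letters in the genome and were not tested for binding.

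**Figure D1:**
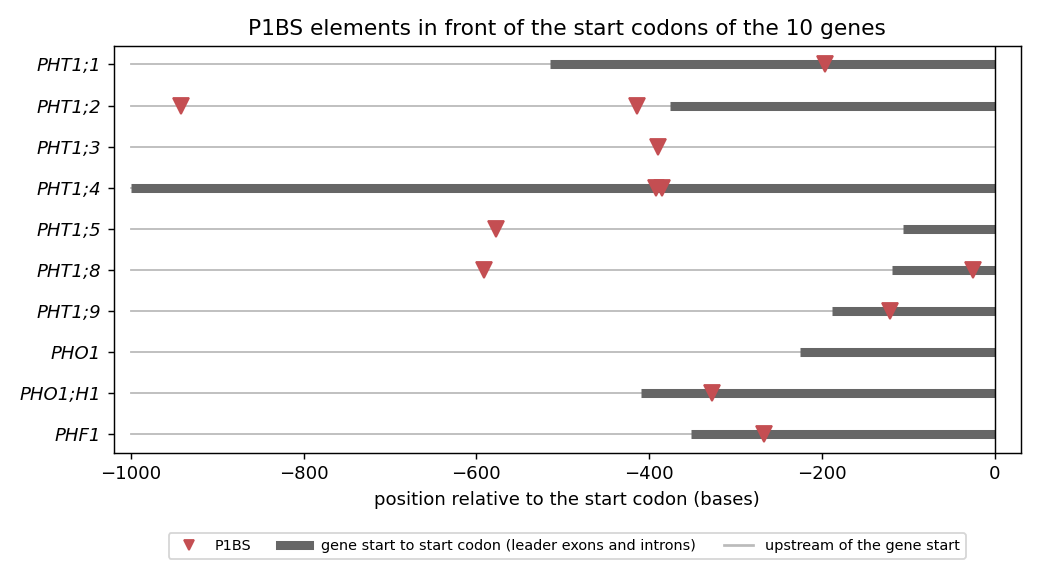
Position of each P1BS (triangles) in the 1000 bases before the start codon of the 10 genes, in bases from the start codon, with the span from the gene start to the start codon as a thick line. *PHO1* has none, and the pair in *PHT1;4* lies 395 and 389 bases before the start codon, inside its long leader.

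In *vip3-1* apices *PHT1;4* was much higher than in WT, while *PHO1*, *PHO1;H1* and *PHF1* were each 2.29-fold to 2.53-fold higher. *PHT1;1*, *PHT1;2* and *PHT1;3* had no count in any library, *PHT1;8* and *PHT1;9* did not pass the filter on low counts, and *PHT1;5* overlapped between genotypes. Of the 10 genes, 5 passed the filter on low counts. A gene was called where the adjusted p-value of the edgeR quasi-likelihood test over all 20690 genes was under 0.05. The 4 genes called were all higher in *vip3-1*, beside 30.7% of all tested genes called, 14.6% called higher and 16.1% called lower. In the same 4 genes every *vip3-1* library lay above every WT library, beside 25.3% of all tested genes. Because the genes were chosen on this contrast, nothing is read from these counts.

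**Figure D2:**
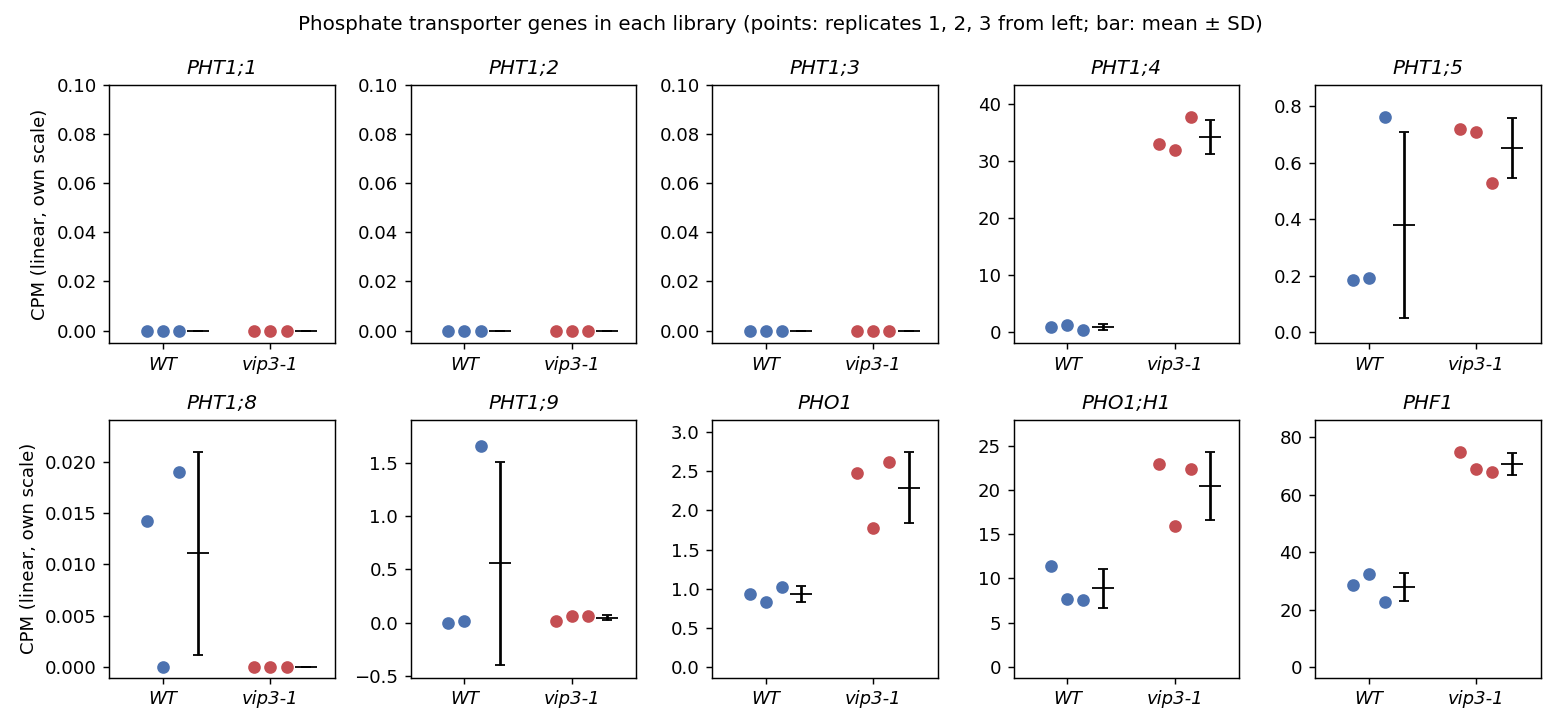
CPM of the 10 genes in each of the 6 libraries (points, replicates 1 to 3 from left, WT blue and *vip3-1* red), on linear axes scaled per gene, with the mean ± SD as a bar. Genotypes are apart for *PHT1;4*, *PHO1*, *PHO1;H1* and *PHF1*, and WT replicate 3 stands high for *PHT1;5* and *PHT1;9*.

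*PHT1;4* (AT2G38940, chr2:16257157-16260253 in TAIR10.1, 2 exons) encodes a high-affinity Pi importer that is known to account, with PHT1;1, for most Pi uptake by the root. It had 66, 76 and 17 counts in WT replicates 1 to 3 and 1700, 1623 and 1926 in *vip3-1*. In CPM these are 0.935, 1.33 and 0.323 in WT and 33.0, 32.0 and 37.7 in *vip3-1*. The lowest *vip3-1* library was thus far above the highest WT library, and the lowest level was in WT replicate 3. The mean rose from 0.864 ± 0.509 CPM to 34.2 ± 3.05 CPM (SD, n = 3), a log2 fold change of 5.29 (SE 0.41) or 39.1-fold. It ranked 24 of 20690 tested genes by log2 fold change. Leaving out WT replicate 3 lowered the log2 fold change to 4.93, and leaving out WT replicate 2 raised it to 5.71. On the FPKM scale, which corrects for transcript length, the gene was at 0.489 ± 0.291 in WT and 19.4 ± 2.03 in *vip3-1*. In WT it thus stood at percentiles 11.7 to 20.7 of the genes with counts, and in *vip3-1* at percentiles 62.3 to 67.2.

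*PHF1* (chr3:19353867-19357261, 10 exons), whose product lets PHT1 proteins leave the endoplasmic reticulum, had the highest FPKM of the 10 genes in both genotypes. It was at 28.6, 32.5 and 22.6 CPM in WT and at 75.0, 69.0 and 67.9 CPM in *vip3-1*, with no overlap and with WT replicate 3 again lowest. The log2 fold change was 1.34 (SE 0.14), or 2.53-fold, and it lay between 1.21 and 1.46 with any 1 library left out. WT replicate 3 thus held the lowest level of both the importer and its trafficking factor.

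*PHO1* (chr3:8387398-8393467, 15 exons) had the lowest level of the 4 called genes in *vip3-1*. It was at 0.935, 0.825 and 1.03 CPM in WT and 2.48, 1.77 and 2.62 CPM in *vip3-1*. All *vip3-1* libraries were higher than all WT libraries, and the log2 fold change was 1.30 (SE 0.24), or 2.47-fold. *PHO1;H1* (chr1:25812449-25816983, 12 exons), the homologue with a partly shared export role, was at 11.4, 7.67 and 7.61 CPM in WT and 22.9, 16.0 and 22.4 CPM in *vip3-1*. Its groups did not overlap either, WT replicate 1 being the highest WT library and *vip3-1* replicate 2 the lowest *vip3-1* library. The log2 fold change was 1.20 (SE 0.21), or 2.29-fold. With 1 library left out, it lay between 1.18 and 1.45 for *PHO1* and between 1.09 and 1.42 for *PHO1;H1*. *PHO1;H1* was not called when all genes entered a limma fit on log2(FPKM + 1), where its log2 difference was still positive.

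*PHO1* is known from vascular tissue, so vascular markers were counted beside it. Of 8 vascular markers 3 were called higher, none lower and 5 not (37.5% called, beside 30.7% of all tested genes), and their summed level was 40.3 to 54.2 CPM in WT and 73.8 to 100.7 CPM in *vip3-1*. Of 8 meristem and primordium markers 6 were called higher and none lower (75.0% called, beside 30.7% of all tested genes). Their sums were 944 to 1182 CPM in WT and 1375 to 1452 CPM in *vip3-1*. The part of either tissue in the levels of the 10 genes was not tested, and in such bulk samples a larger share of cells of a type and more RNA per cell cannot be told apart. Of 5 root markers, 3 (*EXP7*, *RHD6* and *CASP1*) had at most 3 counts in any library, and the 5 together reached at most 0.313 CPM, so root markers were at or near 0 in these apices.

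*PHT1;5* (chr2:13927606-13929763), known for moving Pi between organs, was low in every library. It was at 0.184, 0.193 and 0.761 CPM in WT and 0.718, 0.709 and 0.528 CPM in *vip3-1*, so that WT replicate 3 was the highest of all and the genotypes overlapped. The log2 fold change was 0.79 (SE 0.60), which was not called. Without WT replicate 3 it was 1.78 and was called, among 38.5% of 20928 tested genes called in that fit.

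*PHT1;9* (chr1:28678935-28682062) and *PHT1;8* (chr1:7253998-7258952), which are known from the root and share 77.8% of their coding bases, did not enter the main fit. *PHT1;9* had 0, 1 and 87 counts in WT and 1, 3 and 3 counts in *vip3-1*, so nearly all of its counts came from WT replicate 3. *PHT1;8* had 1, 0 and 1 counts in WT and none in *vip3-1*. *PHT1;6*, a family gene outside the set that is known from anthers, was also highest in WT replicate 3, with 18, 22 and 78 counts in WT and 32, 11 and 65 in *vip3-1* (log2 fold change 0.0011, SE 0.82, adjusted p = 0.999), with no stable direction. The libraries high in *PHT1;5*, *PHT1;6* and *PHT1;9* thus include the one with the high sum of anther and tapetum markers. Of 10 of those 11 markers that were tested, 1 was called higher and none lower in *vip3-1*. This share lies below the 30.7% of all tested genes called. The called marker had the highest log2 fold change of the list (3.088) and ran against its median of -2.775. The other 9 were all negative and not called, with WT replicate 3 far above the other libraries in the marker sum. The part of anther tissue in these *PHT1* levels was not tested. *PHT1;7*, the remaining family gene, had 0, 0 and 1 counts in WT and 1, 1 and 7 counts in *vip3-1*.

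*PHT1;1* (chr5:17399769-17402158), *PHT1;2* (chr5:17415698-17417972) and *PHT1;3* (chr5:17409524-17411214) encode root importers and lie next to each other on chromosome 5. All 3 were at 0 in all 6 libraries, which allows at most 3 counts, that is 0.0425 to 0.0591 CPM in a library, by counting error alone. Genes on both sides of them had counts, from 5723 to 8210 for AT5G43320 and from 31 to 145 for AT5G43380 on the far side. *PHT1;1* and *PHT1;2* share 97.7% of their coding bases, and 40.4% and 43.4% of their stretches of 50 bases occur at more than 1 place in the genome, so their counts are uncertain where the counting could split reads between copies. *PHT1;3* shares 90.0% of its coding bases with *PHT1;1*, but only 1.32% of its stretches of 50 bases occur at more than 1 place. The other 7 genes have no such stretch, and none of the 10 overlaps another annotated gene. How the counting treated reads with several matches is not given in the sources used here, and its part in the counts of 0 was not tested.

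Summed over all 9 *PHT1* genes, the family reached 0.790, 1.18 and 2.69 FPKM in WT and 18.9, 19.1 and 23.2 FPKM in *vip3-1*. *PHT1;4* made up 95.8%, 96.6% and 94.0% of this sum in *vip3-1*. In WT it made up 65.6%, 65.0% and 6.83%, the last in WT replicate 3, where *PHT1;9* and *PHT1;6* were high. The order of the 10 genes by mean FPKM in WT was *PHF1* (21.0 ± 3.84), *PHO1;H1* (3.71 ± 1.35), *PHT1;4* (0.489 ± 0.291), *PHO1* (0.366 ± 0.041), *PHT1;9* (0.317 ± 0.541), *PHT1;5* (0.235 ± 0.211) and *PHT1;8* (0.0069 ± 0.0066), with *PHT1;1*, *PHT1;2* and *PHT1;3* at 0. From *PHT1;4* to *PHT1;5* these WT levels lay within the spread of their libraries. In *vip3-1* the order was *PHF1* (53.7 ± 3.73), *PHT1;4* (19.4 ± 2.03), *PHO1;H1* (8.55 ± 2.26), *PHO1* (0.914 ± 0.192), *PHT1;5* (0.395 ± 0.058) and *PHT1;9* (0.026 ± 0.014), each apart from its neighbours in every library.

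**Figure D3:**
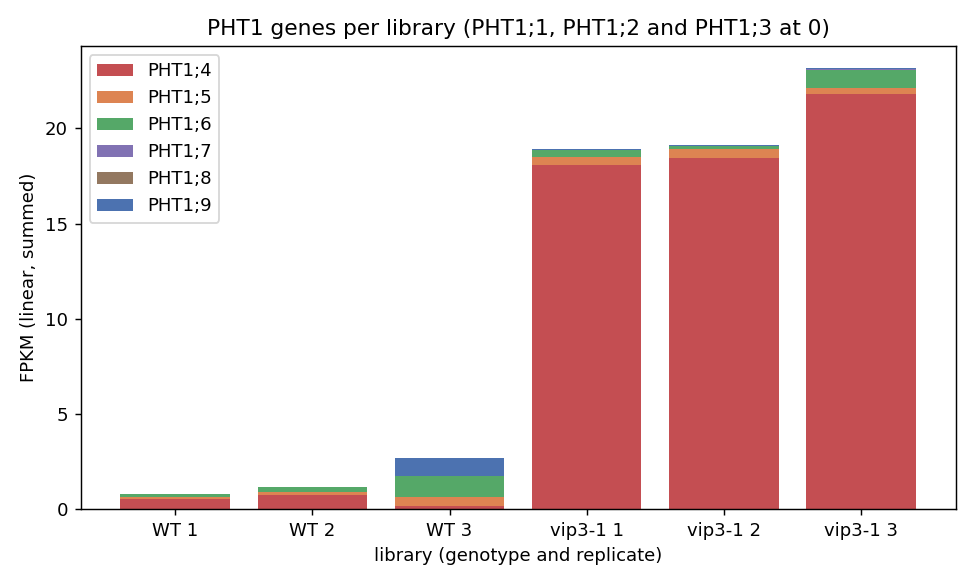
FPKM of the *PHT1* genes stacked for each library, on a linear axis from 0. *PHT1;4* fills 94.0% to 96.6% of each *vip3-1* column, and the WT replicate 3 column is mostly *PHT1;6*, *PHT1;9* and *PHT1;5*.

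The other PHO1-type genes were measured to see whether both families moved as a whole. Of 9 such loci, 8 were tested, 1 was called higher, 2 lower and 5 not, with a median log2 fold change of -0.02, beside -0.018 over all tested genes. The share called was 37.5%, near the 30.7% of all tested genes. AT1G26730, annotated as an EXS (ERD1/XPR1/SYG1) family protein, was higher in *vip3-1*, at 4.35 ± 0.697 CPM in WT and 13.6 ± 2.72 CPM in *vip3-1* (log2 fold change 1.64, SE 0.19, adjusted p = 0.00301). *SHB1* (AT4G25350), a PHO1-type gene known from seed and light responses, was lower, at 2.30 ± 0.434 CPM and 0.848 ± 0.130 CPM (-1.44, SE 0.25, adjusted p = 0.00898). AT2G03240, the most abundant of the PHO1-type loci with 176 to 260 CPM, was lower by a log2 fold change of -0.35 (SE 0.099, adjusted p = 0.0407), a call lost with limma on FPKM and without WT replicate 1 (-0.34), WT replicate 2 (-0.40), *vip3-1* replicate 1 (-0.30) or *vip3-1* replicate 2 (-0.34). Among the *PHT1* genes only *PHT1;4* was called with all 6 libraries, and *PHT1;5* joined it without WT replicate 3.

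**Figure D4:**
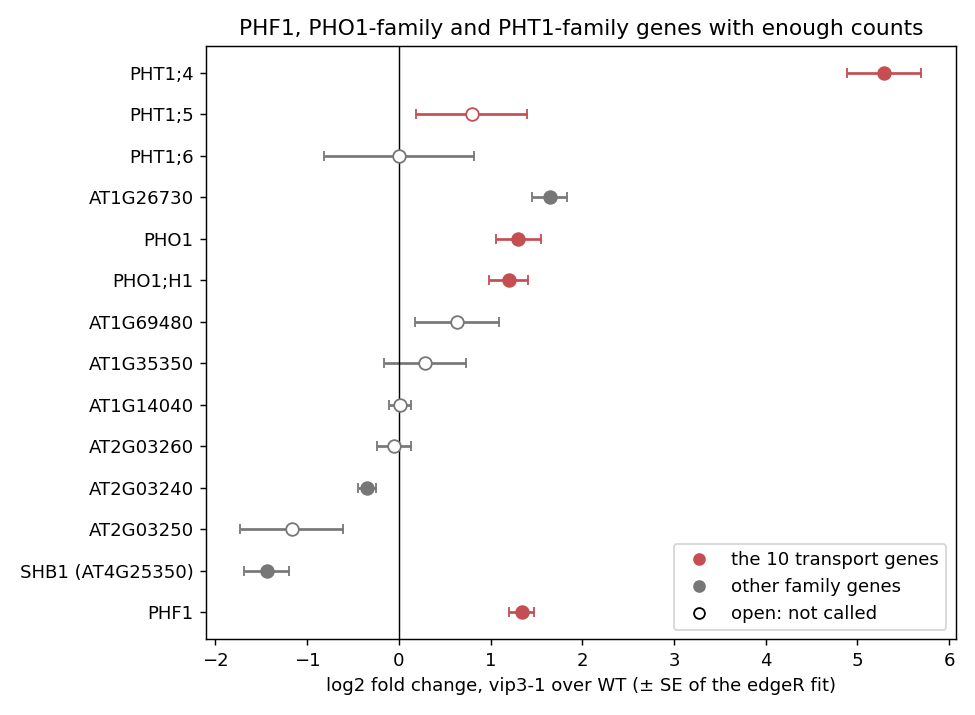
Log2 fold change of *vip3-1* over WT (± SE of the edgeR fit) for the tested *PHT1* and PHO1-type genes and *PHF1*, on a linear axis. Filled points were called, open points not, and *PHT1;4* lies at 5.29, far from the next gene, AT1G26730, at 1.64.

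The remaining Pi-related genes were taken from lists that were also written with earlier results of these data known. In these lists, and in those of the PHO1-type loci and of other nutrients, the genes named were picked among the called ones. Their adjusted p-values were thus under 0.05 by choice and test nothing further. Over all 75 related genes 66 were tested, of which 24 were called higher and 9 lower, with a median log2 fold change of 0.10. Of 6 genes of PHT1 trafficking and turnover, 2 were called higher and none lower (median 0.0045). The share called was 33.3%, near the 30.7% of all tested genes. *PHO2*, whose product leads to the degradation of PHO1 and PHT1 proteins, went from 70.5 ± 21.2 CPM to 279 ± 39.0 CPM (log2 fold change 1.99, SE 0.23, adjusted p = 0.00301). *STL2P*, a Sec12-like gene of the endoplasmic reticulum, went from 53.1 ± 2.34 CPM to 71.0 ± 3.72 CPM (0.42, SE 0.069, adjusted p = 0.00802). *PHT1;4*, *PHF1* and *PHO2* were thus each higher in *vip3-1*. Within WT, *PHO2* was highest in replicate 3 (93.6 CPM, against 52.0 and 66.0 CPM), where *PHT1;4* and *PHF1* were lowest.

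Of 20 regulators of the Pi response, 18 were tested, with 7 called higher, 3 lower and 8 not (median 0.11, also with genes at or under 3 counts set to their bound). Their share called was 55.6%, beside 30.7% of all tested genes. *SPX3*, a gene of the Pi response named for its SPX domain, rose from 0.143 ± 0.079 CPM to 2.24 ± 0.250 CPM (3.92, SE 0.45, adjusted p = 0.00303). AT5G03545, annotated as expressed in response to phosphate starvation, had 24, 29 and 9 counts in WT and 8014, 6695 and 8340 in *vip3-1* (8.76, SE 0.28, adjusted p = 0.000192). *IPS1*, a non-coding RNA that sequesters the microRNA against *PHO2*, had 1, 0 and 1 counts in WT and 393, 306 and 257 counts in *vip3-1*. In WT *IPS1* was at the detection floor, while *SPX3* (15, 9 and 3 counts) and AT5G03545 were low. All 3 genes were higher in every *vip3-1* library than in any WT library.

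Of 17 genes that free Pi from other molecules or replace phospholipids, 15 were tested, and 11 were called higher, none lower and 4 not (median 1.52). Their share called was 73.3%, beside 30.7% of all tested genes. *PS2*, a pyrophosphate-specific phosphatase, rose from 2.07 ± 0.402 CPM to 72.7 ± 15.8 CPM (5.12, SE 0.22, adjusted p = 0.000262). *MGD3*, a synthase of galactolipids that stand in for phospholipids, rose from 0.442 ± 0.179 CPM to 4.95 ± 1.16 CPM (3.47, SE 0.36, adjusted p = 0.00219). The purple acid phosphatase gene *PAP17* rose from 12.1 ± 2.22 CPM to 111 ± 12.8 CPM (3.20, SE 0.16, adjusted p = 0.000278).

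Of 21 transporters of Pi in organelles and the vacuole 18 were tested, with 3 called higher, 4 lower and 11 not (median -0.05), a share of 38.9%, near the 30.7% of all tested genes. *GPT2*, the glucose 6-phosphate/phosphate translocator 2, went from 0.351 ± 0.250 CPM to 1.99 ± 0.695 CPM (2.50, SE 0.57, adjusted p = 0.0202), and was not called without WT replicate 1 (2.33), *vip3-1* replicate 1 (2.47) or *vip3-1* replicate 2 (2.22). *G3Pp1*, a putative glycerol-3-phosphate permease, went from 26.6 ± 5.48 CPM to 133 ± 14.1 CPM (2.33, SE 0.17, adjusted p = 0.000850). *PHT4;2*, a plastid Pi transporter, fell from 7.02 ± 1.33 CPM to 3.29 ± 0.235 CPM (-1.10, SE 0.18, adjusted p = 0.00747), a call lost with limma on log2(FPKM + 1) without a filter (-0.79).

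Transporters of nitrate, ammonium and sulfate were counted for comparison with other nutrients. Of 31 genes 22 were tested, with 9 called higher, 1 lower and 12 not (median 0.54), a share of 45.5% beside 30.7% of all tested genes. *NRT1.5*, a nitrate transporter known for xylem loading, went from 0.164 ± 0.106 CPM to 0.671 ± 0.070 CPM (2.04, SE 0.49, adjusted p = 0.0237), but was not called on FPKM with the filter or without any 1 of the libraries other than WT replicate 3 (1.71 to 2.11). *SULTR3;4*, of the sulfate transporter family, went from 2.13 ± 0.453 CPM to 8.64 ± 1.27 CPM (2.02, SE 0.21, adjusted p = 0.00209). The nitrate transporter gene *NRT2.6* fell from 26.0 ± 13.9 CPM to 6.97 ± 2.10 CPM (-1.90, SE 0.40, adjusted p = 0.0161), and was not called without *vip3-1* replicate 1 (-1.78) or replicate 3 (-1.80).

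The genes whose levels over the 6 libraries were most like those of *PHT1;4* were sought by the root mean square difference of log2 CPM after each gene was centred on its own mean. The closest were *HDG8*, a homeodomain gene, at 0.42, AT3G26800, an uncharacterized protein, at 0.46, *CYP79B2*, a cytochrome P450 that acts on tryptophan, at 0.538, AT5G53048 at 0.539 and *AAE12*, an acyl activating enzyme, at 0.551. *HDG8* had 3, 9 and 2 counts in WT and 257, 176 and 226 in *vip3-1*, and so shared with *PHT1;4* the highest WT level in replicate 2. *CYP79B2* had 95, 59 and 47 counts in WT and 2585, 2354 and 1924 counts in *vip3-1*. AT5G53048 is annotated as an antisense transcript of a neighbouring gene, and its reads cannot be told apart from those of its partner without a strand setting. With 3 libraries per genotype, this likeness is mostly that of the step between genotypes, and no Pi gene of the lists is among the 5.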

How the data were processed

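Shoot apices of WT and *vip3-1* were compared by RNA-seq, with groups and replicate numbers from the sample titles. The authors trimmed reads with Trimmomatic, mapped them to Ensembl TAIR10 with TopHat 2.0.6, Bowtie 2.0.5 and SAMtools 1.2, and quantified genes with Cufflinks 2.1.1. The deposited estimated counts are not scaled for library size. The deposited FPKM are scaled by the authors for transcript length and the total mapped. The authors' own comparison, in another deposited table (means, fold changes, test scores, p- and q-values), was not used. Strand setting and handling of reads with several matches are not given in the sources used here.

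Of the count values 1.47%, in 1059 genes, were not whole (tolerance 1e-06), so all were rounded. Of 33554 genes, 6919 had no count and 32807 identifiers matched RefSeq. The test was that of edgeR 4.0.16 (R 4.3.3, TMM, filterByExpr, quasi-likelihood test, genotype only, Benjamini-Hochberg adjustment), checked on simulated counts. The simulation gave all genes the same dispersion and had no library set apart. It therefore does not cover data with a library like WT replicate 3. CPM use the TMM-scaled library size, and the SE was taken as |log2 fold change| over the root of F. A count of 0 was read as allowing 3 counts. Alternatives used limma 3.58.1, DESeq2 1.42.0, other filters and libraries left out. Replicates of a genotype were not copies (chi-square per degree of freedom at least 22.76).

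Deviations from the genotype means correlated at 0.19 to 0.367 in the 3 same-numbered pairs and at -0.442 to 0.289 in the 6 others. These ranges overlap, so the correlations do not settle whether the numbers in the labels pair the libraries. The main fit left the replicate number out, and an alternative entered it as a block. No source says that libraries of equal number shared a harvest.

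Sequences and motifs were read from the RefSeq TAIR10.1 genome, and 27443 protein-coding genes had a full window. Identity was computed on aligned coding bases. The 10 genes and all lists were chosen with earlier results of these data known. Named genes are the 10, the 2 other *PHT1* genes, the 3 called genes of largest change without overlap per related list, and the 5 nearest to *PHT1;4*. Markers are given as sums, except those at or under 3 counts. Figures were drawn with matplotlib 3.10.9 in python 3.11.15.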

Additional observations from a re-analysis of the deposited data

How the results depend on the processing

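In all 14 alternatives the log2 fold changes of *PHT1;4*, *PHO1*, *PHO1;H1*, *PHF1* and *PHT1;5* stayed positive. The number of the 10 genes called was 4, except for 3 with limma on log2(FPKM + 1) without a filter (*PHO1;H1* lost) and 5 without WT replicate 3 (*PHT1;5* gained), so leaving out 1 library gave 4 to 5. Over all genes 6354 were called, 3633 with limma on log2(FPKM + 0.1), 3482 on log2(FPKM + 1), 3297 without a filter and 1814 with a log2 fold change of at least 1 as well. Leaving out 1 library gave 2662 (*vip3-1* replicate 2) to 8055 (WT replicate 3). Lower counts also came without WT replicate 2 (4154) and without *vip3-1* replicates 1 (3238) and 3 (3698). The cause of the lower counts, on FPKM or with a library left out, was not tested. Of the 66 related genes tested 33 were called, 20 with a log2 fold change of at least 1, and 23 to 41 with 1 library left out. Over all tested genes the shares called were 30.7%, 8.77% with that threshold, and 12.6% to 38.5% with 1 library left out. With the replicate block 7388 genes, 4 of the 10 and 36 related genes were called, and the block changed no other call among the 10 genes and the 17 other named genes refitted. Without TMM, 32.2% of the called genes were higher in *vip3-1*, against 47.7% with it, and the median of all log2 fold changes was -0.114 against -0.018. On FPKM, log2(value + 1) understates low genes. On that scale *PHT1;4* was at 3.79 against 5.29 in the main fit, and *PHO1* at 0.48 against 1.30. Of 16 other named genes with a called fold change, 11 were called in each of the 14 alternatives whose fit included them (13 for *SPX3* and AT5G03545), the threshold on the fold change aside, and the exceptions stand beside their values. *IPS1*, also called but at the detection floor in WT, and the 5 genes nearest to *PHT1;4* were left out of this count. *PHT1;6*, never called, turned negative without TMM (-0.096) and lay between -0.76 (without *vip3-1* replicate 3) and 1.14 (without WT replicate 3) with 1 library left out, below 0 also without WT replicate 1 (-0.41) or 2 (-0.29). Depth limits *PHT1;8*, with at most 1 count in a library. *PHT1;9*, with nearly all of its counts in WT replicate 3, did not pass the filter of the main fit. Some alternatives had a looser filter or none and kept it, but their values are not reported here.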
